A study of Mus musculus with 8 samples.

Results

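The genes described are 10 markers of macrophages and of the complement initiator C1q: Csf1r, Cx3cr1, Tyrobp, Ptprc, Cd68, Aif1, C1qa, C1qb, C1qc and Lgals3. They were taken by symbol from the annotation of the array, which gave 16 probe sets for these 10 of the 18193 genes with a probe set of their own. All 10 passed the filter on dim probe sets (a mean log2 signal of 5.27, a signal of 38.7) and are among the 13221 genes tested.

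RNA from the organ of Corti, the strip of the cochlea that holds the hair cells, was hybridised to 8 Affymetrix arrays. The mice were taken at postnatal day 16. The conditional knockout mice (cKO) were Atoh1-Cre;Dicer1(flox/flox), so that Cre removes Dicer1, the enzyme that cuts microRNA precursors, where the Atoh1 regulatory sequences are active, in the cochlea chiefly the hair cells. Their littermate controls were Atoh1-Cre;Dicer1(flox/wt), which carry the same Cre and a single floxed allele, so no group was free of Cre. Each sample joined the basal or the apical parts of the left and right cochlea of 1 mouse, giving the groups cKO base, control base, cKO apex and control apex with 2 samples each. Samples of the same genotype and replicate number were taken as base and apex of the same mouse, which gives 4 presumed mice. The tissue was not sorted, so macrophages were measured together with all other cells of the strip, and fewer macrophages cannot be told apart from less RNA per macrophage.

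Macrophages reside in the cochlea from before birth and clear debris of dying cells. CSF1R, the receptor for CSF1 and IL-34, keeps them alive, and CX3CR1 receives the signal of fractalkine (CX3CL1). C1q is assembled from A, B and C chains, binds targets such as dying cells or immune complexes, and starts the classical complement pathway through its proteases C1r and C1s; in the brain it is made mostly by microglia. Galectin-3, the product of Lgals3, binds galactosides and rises in activated phagocytes, but it is also made by many epithelial cells and by other leukocytes.

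The promoters of 2 C1q chains are shown because the C1q genes moved together across the arrays, and that of Lgals3 because Lgals3 did not move with them. The sequences are RefSeq promoter windows of GRCm38.p6, from 250 bases before to 50 bases after the gene's start, read on the gene's strand. Capitals mark GAGGAA or its reverse complement TTCCTC, the core of the motif of PU.1, the transcription factor encoded by Spi1 that directs macrophage genes.
C1qb (chr4:136886151-136886450, minus strand): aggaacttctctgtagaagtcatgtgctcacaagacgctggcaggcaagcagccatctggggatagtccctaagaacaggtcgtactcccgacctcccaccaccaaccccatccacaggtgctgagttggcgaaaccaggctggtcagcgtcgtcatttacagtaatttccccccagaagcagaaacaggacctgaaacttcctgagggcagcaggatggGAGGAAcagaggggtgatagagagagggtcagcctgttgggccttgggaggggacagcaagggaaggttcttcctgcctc
C1qc (chr4:136892865-136893164, minus strand): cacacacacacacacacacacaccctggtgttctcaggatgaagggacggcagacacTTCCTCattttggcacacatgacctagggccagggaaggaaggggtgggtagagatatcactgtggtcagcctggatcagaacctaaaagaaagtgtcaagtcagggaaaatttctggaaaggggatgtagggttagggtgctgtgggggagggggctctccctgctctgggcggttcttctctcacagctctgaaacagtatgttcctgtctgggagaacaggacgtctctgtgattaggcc
Lgals3 (chr14:47373610-47373909, plus strand): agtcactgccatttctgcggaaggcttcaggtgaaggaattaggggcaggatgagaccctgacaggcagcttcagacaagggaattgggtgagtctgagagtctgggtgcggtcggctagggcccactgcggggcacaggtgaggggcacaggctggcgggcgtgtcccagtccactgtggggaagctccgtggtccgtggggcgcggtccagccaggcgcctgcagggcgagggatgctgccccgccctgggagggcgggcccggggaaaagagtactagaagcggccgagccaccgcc
On both strands the motif was found once in the C1qb window, 30 bases before the start, and once in the C1qc window, 193 bases before it. It was not found in the Lgals3 window, nor in the Cx3cr1 window or a Ptprc window. Cx3cr1 followed the mean of the C1q chains across the arrays (Pearson r = 0.926). Whether the motif goes with how the genes moved was not tested. Windows were matched for 7 of the 10 genes, and none for C1qa, Csf1r and Tyrobp. They made 8 windows in all since Ptprc has 2. Of these 8 windows 5 held the motif, against 28.3% of all 32851 promoter windows. The AP-1 motif TGANTCA was found in the Cd68 window alone among the 8, against 7.81% of all windows. A match describes the letters of a window and is no measured binding site. C1qb, C1qc and C1qa lie next to each other on chromosome 4, with 0 annotated genes between them.

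The deposited values are linear array signals, which can be compared between samples for a probe set but not between genes. The labels were checked on other genes. Tectb, which encodes a protein of the tectorial membrane, had log2 signals of 5.71 to 8.71 in the 4 basal samples and 12.52 to 13.48 in the 4 apical samples. Dicer1 itself had log2 signals of 9.06 to 9.41 in cKO and 9.04 to 9.57 in control samples. Since Cre acts in part of the cells and the position of the Dicer1 probes relative to the floxed part is not given in the sources used here, this level checks nothing about the deletion. Xist, transcribed from the inactive X chromosome, had log2 signals of at most 8.23 in all cKO samples and in replicate 2 of the controls, but 12.39 in base and 12.54 in apex of control replicate 1. The melanocyte gene Dct, which marks the stria vascularis beside the organ of Corti, had log2 signals of 13.65 and 13.91 in cKO base, against 13.88 and 5.96 in control base, where replicate 1 had the lower. In the apex Dct ran at 6.91 and 9.37 in cKO and at 11.87 and 6.19 in controls. Dct thus differed between the samples of a group as well as between groups.

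Macrophage markers outside the 10 genes were present. Of 25 further macrophage and microglia genes, 24 were measured and 21 passed the filter, among them Adgre1 (F4/80), the mannose receptor gene Mrc1 and Spi1. Itgam, Trem2 and Siglech were under it. Of 10 measured lymphocyte genes 6 were under the filter, the T cell genes Cd3d, Cd3e, Cd3g, Cd2 and Cd4 and the natural killer gene Nkg7, whereas Cd8a and the B cell genes Cd79a, Cd79b and Ms4a1 passed it. Of 10 measured monocyte and dendritic cell genes 8 passed, and Ccr2 and Itgax were under it. The macrophage list summed to signals of 12892 to 14487 in cKO base, 11453 to 14490 in control base, 12445 to 14513 in cKO apex and 10328 to 14388 in control apex.

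The knockout was compared with the control in each region. Of the 10 genes, 1 stood out: Lgals3 was higher in every cKO sample than in every control sample, about 2-fold. The other 9 overlapped between genotypes over the 8 samples. None of the 10 passed an adjusted p of 0.05 (limma, Benjamini-Hochberg over 13221 genes), and with all 8 arrays neither did any other gene: 0% of the genes tested were called in base, 0% in apex and 0% with both regions averaged per presumed mouse. Without control base replicate 2, however, some genes were called in base. The same held over both regions without presumed control mouse 2. Most of these genes were higher in cKO, and none were among the 10. Such fits leave a single control sample or control mouse in the comparison. With all 8 arrays, the numbers at an unadjusted p under 0.05 were 413 genes in base, 290 in apex and 319 over both regions, where 661 would be expected by the threshold alone. Lgals3 was the only one of the 10 among them in each of the 3 comparisons.

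**Figure D1:**
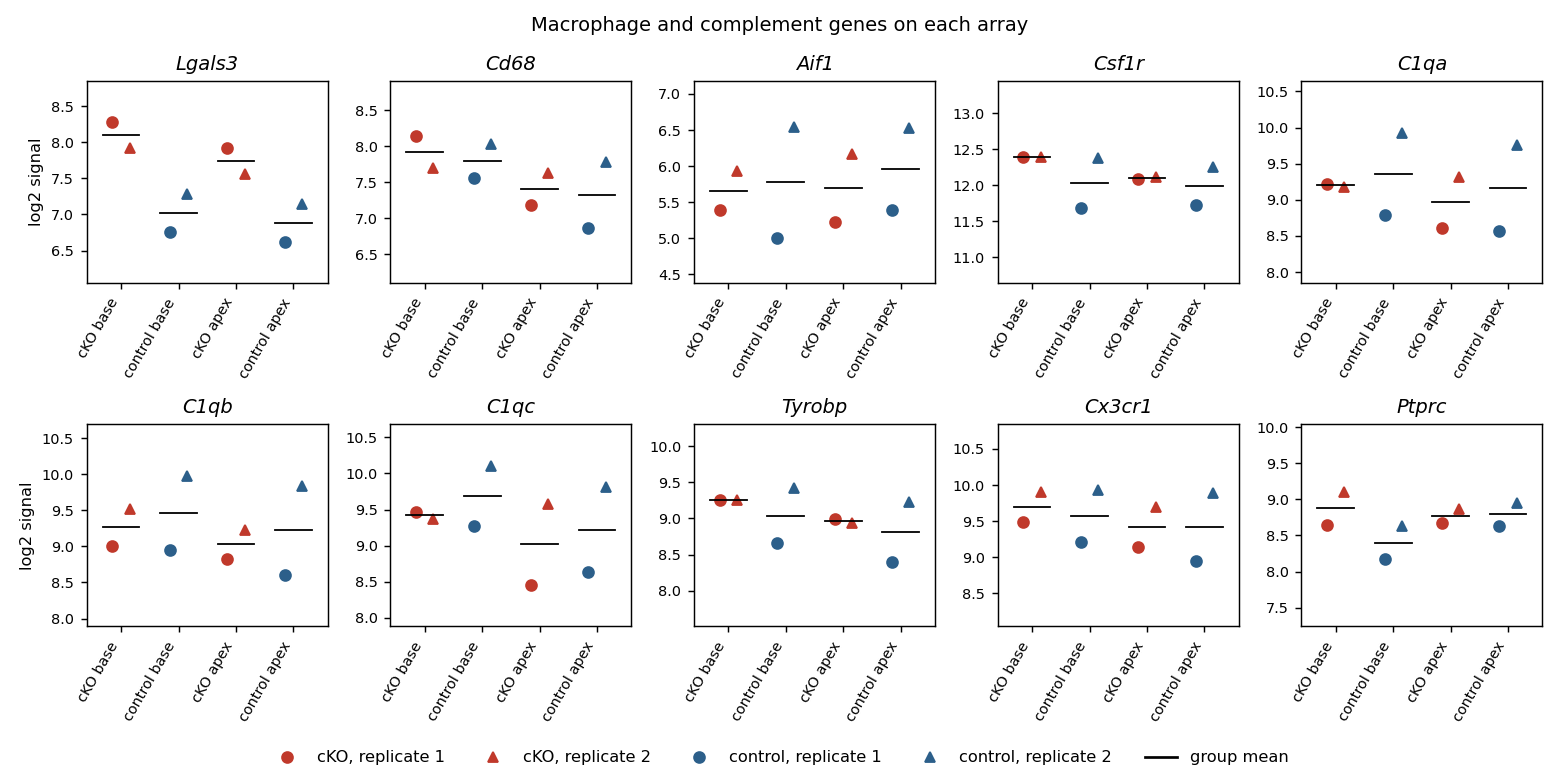
Log2 signal (vertical axis, each panel spanning the same range) of the 10 genes on each of the 8 arrays, with cKO in red and control in blue, circles for replicate 1, triangles for replicate 2 and a bar at the mean of each group. In the Lgals3 panel all red points lie above all blue points, and in the C1q panels the blue points lie farther apart than the red ones in base.

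Lgals3, read by the probe set 1426808_at, had signals of 311.2 and 241.5 in cKO base, against 108.7 and 155.5 in control base. In the apex it had 243.3 and 189.2 in cKO, against 97.9 and 141.3 in control. The groups did not overlap in either region, and the lowest cKO value (189.2, apex) lay 1.22-fold above the highest control value (155.5, base). The difference was 1.08 ± 0.32 on the log2 scale in base (SE, 2.11-fold, 95% interval 0.34 to 1.81) and 0.87 ± 0.32 in apex (1.82-fold, 0.13 to 1.60). Averaged per presumed mouse it was 0.97 ± 0.27, or 1.96-fold. With limma the unadjusted p was 0.0102 in base, 0.0269 in apex and 0.0160 over both regions, and the adjusted p was 0.99985, 0.9998 and 0.999. The genotype difference was 0.21 ± 0.45 larger in base than in apex, with a 95% interval of -0.83 to 1.25, and so could not be told from 0. Over all tested genes, 3.24% did not overlap between the genotypes on the 8 arrays, and 1.61% had every cKO sample above every control sample. Lgals3 was the only such gene among the 10.

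The receptors and signalling proteins came next by role. Csf1r, read by 1419872_at, had signals of 5396 and 5373 in cKO base, against 3299 and 5296 in control base. In the apex it had 4353 and 4417 in cKO, against 3391 and 4865 in control. Both cKO samples lay above both controls in base, by little above control replicate 2, and the groups overlapped in apex; the difference was 0.37 ± 0.25 in base and 0.11 ± 0.25 in apex (log2, SE; limma adjusted p = 0.99985 and 0.9998). Another probe set (1419873_s_at) gave 0.38 ± 0.28 in base and -0.13 ± 0.28 in apex. The last (1423593_a_at) gave 0.06 ± 0.40 in base and -0.06 ± 0.40 in apex. The probe sets thus disagreed on the sign in the apex, and on the size in base.

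Cx3cr1 had signals of 720 and 954.2 in cKO base, against 591.6 and 976.1 in control base. In the apex it had 567.8 and 826 in cKO, against 495.6 and 946.9 in control. In both regions the cKO samples lay within the range of the controls, with differences of 0.13 ± 0.38 in base and -0.00 ± 0.38 in apex. Its other probe set, 1450019_at, was under the filter. Tyrobp encodes DAP12, the adaptor through which receptors such as TREM2 signal. Tyrobp had 608.8 and 610.7 in cKO base, against 403.1 and 683.3 in control base, and 508.6 and 491.2 in cKO apex, against 335.7 and 597.4 in control apex. The cKO samples were nearly equal to each other and lay between the controls, and the difference was 0.22 ± 0.33 in base and 0.16 ± 0.33 in apex.

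Ptprc encodes CD45, the phosphatase on all nucleated blood cells, and so counts leukocytes other than macrophages as well. Ptprc had 400.2 and 550.1 in cKO base, against 289.1 and 394.8 in control base. In the apex it had 409.4 and 466.7 in cKO, against 396.7 and 496.4 in control. The groups did not overlap in base, by a narrow margin, and overlapped in apex. The difference was 0.47 ± 0.26 in base and -0.02 ± 0.26 in apex, with intervals of -0.13 to 1.07 and -0.62 to 0.58. Its other probe set, 1440165_at, was under the filter. In base, Lgals3, Csf1r and Ptprc were the 3 of 10 genes without overlap, all higher in cKO, where 28.7% of all tested genes did not overlap in either direction. In apex it was Lgals3 alone, where 31.2% did not.

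Cd68, a glycoprotein of the lysosomes of phagocytes, had signals of 280.9 and 206.8 in cKO base, against 188.5 and 260.1 in control base. In the apex it had 145.8 and 198.6 in cKO, against 116.9 and 220 in control. The groups overlapped in both regions, and the difference was 0.12 ± 0.37 in base and 0.09 ± 0.37 in apex. Aif1 encodes IBA1, the actin-bundling protein by which macrophages and microglia are commonly stained. Aif1 was the dimmest of the 10, with 41.91 and 61.04 in cKO base, against 32.24 and 93.43 in control base, and 37.46 and 71.9 in cKO apex, against 42.17 and 92.15 in control apex. In both regions the controls spread wider than the cKO samples, and some values lay under the filter level of 38.7; the difference was -0.12 ± 0.65 in base and -0.26 ± 0.65 in apex. The 95% interval in base reached from -1.64 to 1.41.

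The C1q chains had small genotype differences of a common sign, none beyond the spread of the replicates. C1qa had 598.2 and 581.4 in cKO base, against 444 and 969.9 in control base, and 391.7 and 638.2 in cKO apex, against 379.2 and 863.3 in control apex. C1qb (1437726_x_at) had 513.2 and 736.2 in cKO base, against 496.6 and 1005 in control base, and 454.8 and 597.6 in cKO apex, against 390.4 and 911.4 in control apex. C1qc had 704.5 and 664.1 in cKO base, against 619.9 and 1102 in control base, and 351.3 and 765.4 in cKO apex, against 396.3 and 898.2 in control apex. For each chain control replicate 2 was the highest sample of its region, and the cKO samples fell between the controls except for C1qc replicate 1 in apex. The differences were -0.15 ± 0.49, -0.20 ± 0.47 and -0.27 ± 0.50 in base and -0.19 ± 0.49, -0.19 ± 0.47 and -0.20 ± 0.50 in apex for C1qa, C1qb and C1qc. For C1qc in base the interval was -1.44 to 0.89. The other C1qb probe sets gave -0.21 ± 0.55 (1417063_at) and -0.45 ± 0.24 (1434366_x_at) in base, and 0.09 ± 0.55 and -0.11 ± 0.24 in apex. Of the 3, 2 are named x_at, which marks probes that can bind related transcripts.

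**Figure D2:**
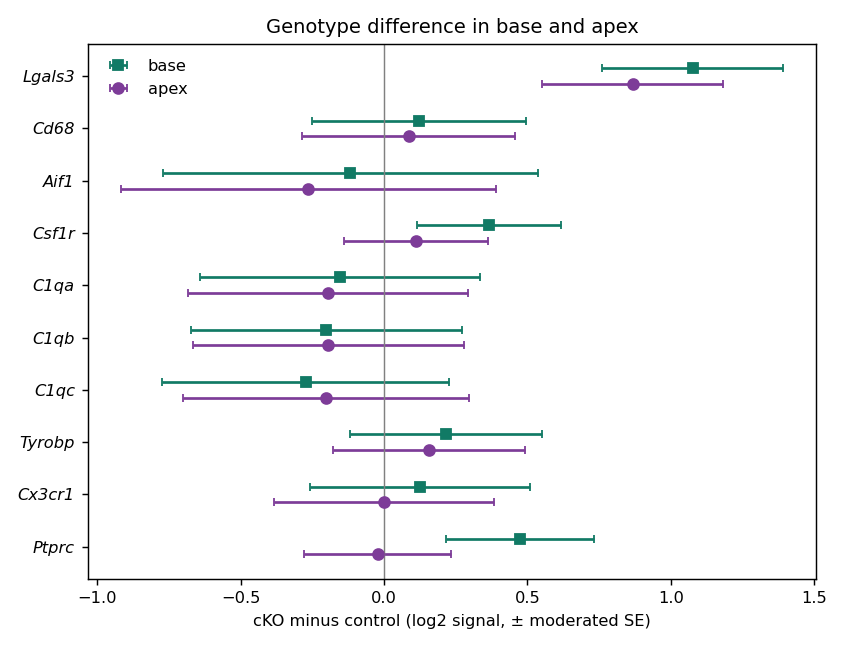
Difference of cKO minus control in log2 signal (horizontal axis) for each of the 10 genes in base (green squares) and apex (purple circles), with bars of ± 1 moderated standard error. Lgals3 lies at 1.08 in base and 0.87 in apex, and the other genes lie between -0.27 and 0.47.

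Over the 10 genes, 6 were higher and 4 lower in cKO in base, with a median difference of 0.12, against -0.00 over all tested genes. In apex 4 were higher and 6 lower, with a median of -0.01, against 0.00 over all tested genes. The median depended on the control samples. Without control replicate 2 it was 0.54 in base and 0.41 in apex, and without control replicate 1 it was -0.20 in base and -0.42 in apex. Of the 21 further macrophage genes tested, 16 had a higher mean in cKO in base and 11 in apex, with medians of 0.10 and 0.01. None of these was called.

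The control mice differed from each other in these genes. All 10 had a higher signal in control replicate 2 than in control replicate 1, in base and in apex. The median ratio of replicate 2 to replicate 1 over the 10 genes was 1.67 in base and 1.90 in apex, against 1.01 and 1.02 over all tested genes. In cKO it was 0.999 in base and 1.34 in apex, against 0.993 and 1.01 over all tested genes. Aif1, C1qa, C1qb, C1qc, Tyrobp and Cx3cr1 were at least 1.5-fold higher in control replicate 2 in both regions, 6 of the 10, against 3.97% of all tested genes. In cKO 0 of the 10 reached that in both regions. Lgals3 had ratios of 1.43 in base and 1.44 in apex in controls, and of 0.776 and 0.778 in cKO. Control replicate 1 was also the mouse with the high Xist signal given above. With 1 mouse of each kind among the controls, this difference cannot be told apart from other differences between the mice.

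**Figure D3:**
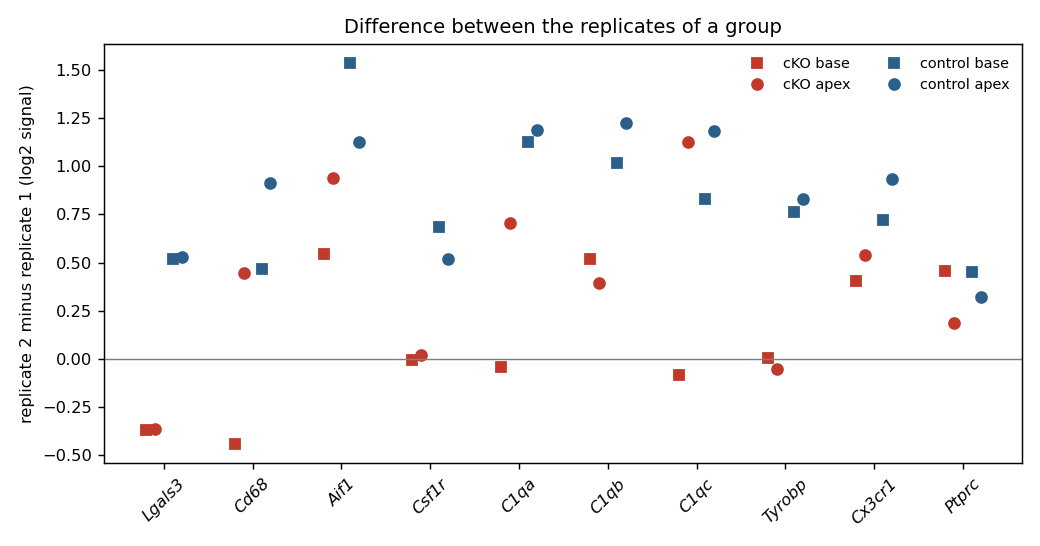
Replicate 2 minus replicate 1 in log2 signal (vertical axis) for each gene, with cKO in red and control in blue, squares for base and circles for apex. All blue points lie above 0, whereas red points lie on both sides of it.

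Most of the 9 genes other than Lgals3 followed each other across the arrays, Ptprc less closely. Over the 8 arrays the 36 pairs among them had a median Pearson r of 0.763, from 0.133 (Cd68 with Ptprc) to 0.951 (Csf1r with Tyrobp). The C1q chains had r of 0.864 (C1qb with C1qc) to 0.944 (C1qa with C1qc). Ptprc had a median r of 0.462 with the other 8, from 0.133 with Cd68 to 0.645 with Csf1r. Lgals3 had a median r of 0.316 with the other 9, from 0.0056 with Aif1 to 0.749 with Csf1r. These are descriptions over 8 arrays that share mice, regions and array scaling. Relative to the mean of the C1q chains (both centred over the arrays), Lgals3 stood at 0.87 and 0.37 log2 units in cKO base, against -0.43 and -0.90 in control base. In apex it stood at 1.11 and 0.00 in cKO, against -0.17 and -0.84 in control. Every cKO sample lay above every control sample on this scale. The scale reuses the Lgals3 values that did not overlap between the genotypes, so this is no separate result. The share of all tested genes was not computed on it.

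**Figure D4:**
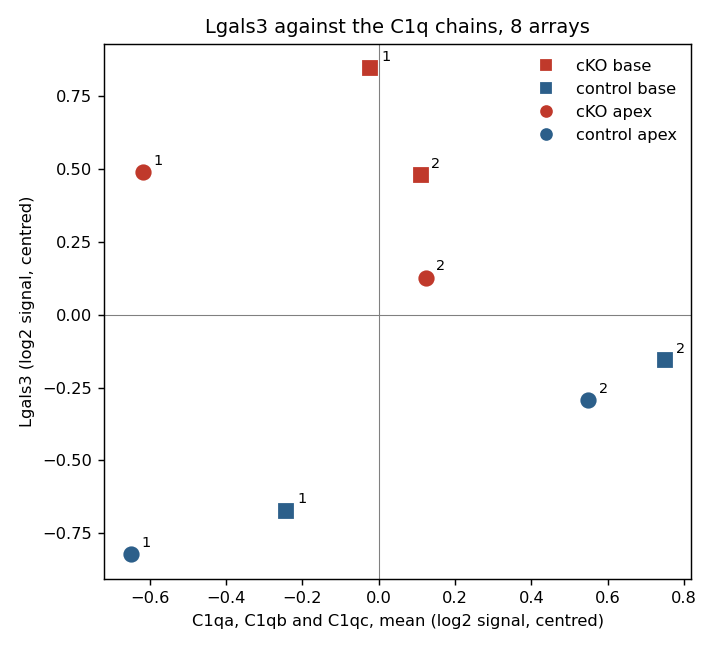
Lgals3 (vertical axis) against the mean of C1qa, C1qb and C1qc (horizontal axis), both in log2 signal centred over the 8 arrays, with cKO in red, control in blue, squares for base, circles for apex and the replicate number beside each point. All cKO samples lie above 0 and all control samples below 0 on the Lgals3 axis, while the lowest and the highest value on the C1q axis both belong to controls.

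Likeness to other genes was measured by Pearson r over the 8 arrays among 13211 tested genes other than the 10. Of macrophage genes, Adgre1 (0.901), Ms4a7 (0.877) and Mrc1 (0.844) followed the mean of the C1q chains most closely, and the 21 tested genes of the macrophage list had a median r of 0.707, against 0.0337 over all tested genes. The same list had a median r of 0.296 with Lgals3. For neutrophil granule genes it was the reverse: leaving out Elane, whose control signals were all under the filter level, the median r of the other 9 was 0.838 with Lgals3 and 0.264 with C1q. Ngp (0.898) and Prtn3 (0.892) followed Lgals3 most closely among them. This order was not particular to neutrophil genes. The median r was 0.567 with Lgals3 and -0.058 with C1q for the fibrocyte and bone list, and 0.498 and 0.060 for the red blood cell list. Other lists ran the other way, such as the endothelium list with 0.152 and 0.458. Lgals3 did not overlap between the genotypes, so likeness to it partly restates that difference. The 10 genes closest to C1q were Rab5c (0.973), Sart1, Slc25a17, Pomp, Tipin, Xpa, Pxmp4, H2aw, Gabarap and Cdc34 (0.952). The 10 closest to Lgals3 were Sppl2b (0.977), Ppard, Atg4c, Gna13, Lamp1, Litaf, Dnmt3a, Zmiz1, Tnrc18 and Pdlim5 (0.941). These values are a description over 8 arrays.

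Neutrophil granule genes were described in the same way, and none of the 10 tested was called between the genotypes (limma, adjusted p = 0.99985 in base). Elane passed the filter through the cKO arrays alone, since all 4 of its control signals (8.876 to 37.99) were under 38.7, and is left out of the counts. Of the other 9, all 9 had a higher mean in cKO base, with a median difference of 1.23 and 7 at an unadjusted p under 0.05, against 3.12% of all tested genes. In apex 7 of the 9 had a higher mean in cKO, with a median of 0.15. There 1 had an unadjusted limma p under 0.05, against 2.19% of all tested genes. The list was chosen with earlier results of these data known, so its counts are a description. Prtn3, encoding proteinase 3, had 324.8 and 211.1 in cKO base, against 73.96 and 97.64 in control base (1.62 ± 0.36). Camp, encoding cathelicidin, had 1095 and 804.8 in cKO base, against 316.4 and 474.8 in control base (1.28 ± 0.29). Ngp had 2406 and 2229 in cKO base, against 797.9 and 1351 in control base (1.16 ± 0.28). The summed signal of the list, here with Elane included, was 8319 to 8872 in cKO base and 2647 to 4561 in control base. In apex it was 4563 to 5019 in cKO and 3254 to 5190 in control. Such sums follow mostly the brightest genes of a list. The osteoclast list, whose cells share the myeloid origin, summed to 8296 to 11903 in cKO base, 4261 to 6528 in control base, 3615 to 4871 in cKO apex and 2996 to 6161 in control apex. In base all 7 tested genes of it had a higher mean in cKO, with a median of 0.80 and Mmp9 at 2.15 ± 0.83. The cKO replicates were uneven. Acp5 had 1652 and 107 in cKO base, against 44.29 and 193.2 in control base, and so was high in cKO replicate 1 alone. Mmp9 had 1202 and 435.5, against 108.6 and 244.9. Ctsk, which made up most of the sums, had 8215 and 7050, against 3548 and 5370. In apex 1 had a higher and 6 a lower mean, with a median of -0.31. No osteoclast gene was called in either region, and Calcr, Ocstamp and Oscar were under the filter. Markers of further tissues also had higher means in cKO base without a call. The red blood cell list had 4 of 4 higher, with a median of 0.68 and Gata1 at 1.79 ± 0.32. Both control base signals of Gata1 (35.34 and 31.29) were under the filter level of 38.7. The stria vascularis list had 8 of 9 higher, with a median of 1.77, and its control replicates were uneven. Dct had signals of 15410 and 12810 in cKO base, against 62.19 and 15090 in control base. Kcnq1 had 1750 and 1396 in cKO base, against 132.8 and 1592 in control base. Control replicate 1 alone was thus low in these 2 genes. In apex the red blood cell and stria lists had 4 of 4 and 8 of 9 lower means. The fibrocyte and bone list had 8 of 8 higher means in cKO in base and again in apex, with medians of 0.18 and 0.22. The part that neutrophils, osteoclasts or these tissues have in the level of Lgals3 or Ptprc was not tested.

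Base was compared with apex over both genotypes. Of the 10 genes 8 had a higher and 2 a lower mean in base, with a median of 0.23, against -0.02 over all tested genes. None passed the adjusted p, where 1.19% of all tested genes did (157 genes, 78 higher and 79 lower in base). Within cKO alone 0 of the 10 passed, against 0.0832% of all genes, with a median of 0.28 and 9 of 10 higher in base. Within controls 0 passed, against 0% of all genes, with a median of 0.17 and 8 of 10 higher. These medians depended on single samples. Without control apex replicate 1 or control base replicate 2 the control median was -0.27 or -0.24 and that over both genotypes 0.0089 or 0.0150. Without control apex replicate 2 or control base replicate 1 they were 0.63 or 0.60 and 0.46 or 0.42. Within cKO the median was 0.0243 without cKO apex replicate 1 and 0.43 without cKO apex replicate 2. The genotype difference did not differ between regions for any gene at the adjusted p, 0% of those tested, and at an unadjusted p under 0.05 for 0 of the 10 and 149 of all.

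Cd68 had the largest difference, 0.48 ± 0.26 (limma adjusted p = 0.398), and was higher in base in all 4 presumed mice. Its basal signal was 1.93-fold the apical in cKO mouse 1, 1.04-fold in cKO mouse 2, 1.61-fold in control mouse 1 and 1.18-fold in control mouse 2. C1qc followed with 0.43 ± 0.35 (adjusted p = 0.564), although it was 0.868-fold in cKO mouse 2. Tyrobp was more even, 1.14-fold to 1.24-fold over the 4 mice (0.26 ± 0.24). Lgals3 was 1.28-fold in both cKO mice, against 1.11-fold and 1.10-fold in controls (0.25 ± 0.22). Both genotypes thus had more signal in base for these genes, within the spread of the replicates. Lgals3, Cd68, C1qb (1437726_x_at), Tyrobp and Cx3cr1 were higher in base in all 4 mice, 5 of the 10, against 16% of all tested genes. The other C1qb probe sets were not. The probe set 1434366_x_at (-0.09 ± 0.17) was lower in base in both cKO mice, and 1417063_at (0.42 ± 0.39) in cKO mouse 2. The other differences were 0.24 ± 0.33 for C1qb, 0.22 ± 0.35 for C1qa and 0.21 ± 0.27 for Cx3cr1. Csf1r had 0.17 ± 0.18, Aif1 -0.11 ± 0.46 and Ptprc -0.15 ± 0.18. Further Csf1r probe sets gave 0.02 ± 0.20 (1419873_s_at) and 0.04 ± 0.29 (1423593_a_at). With the presumed mouse as a fixed replicate block the standard error of Cd68 was 0.21 and its adjusted p 0.253, and for Tyrobp they were 0.12 and 0.293. The block called 255 genes (527 as a random block), none of them among the 10.

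**Figure D5:**
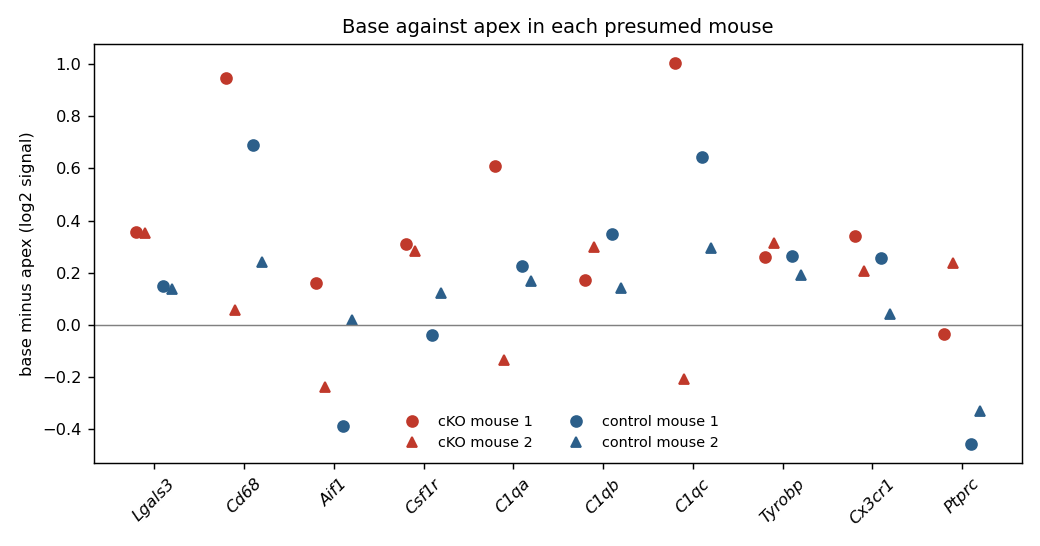
Base minus apex in log2 signal (vertical axis) for each of the 10 genes in each of the 4 presumed mice, with cKO in red and control in blue, circles for mouse 1 and triangles for mouse 2. Lgals3, Cd68, C1qb, Tyrobp and Cx3cr1 lie above 0 in all 4 mice, and Ptprc lies below 0 in 3 of them. C1qb is read here by 1437726_x_at, and its other probe sets are not shown.

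Markers of other tissue also differed in level between base and apex. Stria vascularis genes had a higher mean in base for 8 of 9 tested, with a median of 2.37 and 0 called. The median was 3.65 within cKO and 0.62 within controls, where Dct ran the other way in replicate 1, with log2 signals of 5.96 in base and 11.87 in apex. Hair cell genes had a lower mean in base for 8 of 8, with a median of -0.96 and 2 called. The summed stria signal was 48826 to 54668 in cKO base, 19843 to 53280 in control base, 20968 to 22262 in cKO apex and 20744 to 26898 in control apex. The part of these tissues in the regional differences of macrophage genes was not tested.

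Further genes of the same pathways showed 3 calls between the regions. Tmem119, which marks microglia and is made by osteoblasts as well, had 1239 and 1048 in cKO base, against 438.9 and 498.3 in cKO apex, and 828.1 and 1163 in control base, against 479.8 and 666.4 in control apex. Every basal sample was above every apical sample, and Tmem119 rose by 1.04 ± 0.17 in base (limma adjusted p = 0.0465). It was the 1 call among 21 tested macrophage genes, of which 13 were higher in base, with a median of 0.06. C1s1, the protease C1s that C1q activates, had 363 and 404.9 in cKO base, against 989.9 and 984.6 in cKO apex, and 421.4 and 550.6 in control base, against 620.1 and 921.1 in control apex. Every basal sample was below every apical sample, and C1s1 fell by 1.01 on the log2 scale in base (SE 0.17, limma adjusted p = 0.0485).

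C1s1 was the 1 call among 14 tested complement genes, 6 of them higher and 8 lower in base, with a median of -0.11. Cfi, the protease factor I that cuts C3b and C4b, came next with -0.94 ± 0.17 (adjusted p = 0.0551), and C2 with -1.14 ± 0.32 (adjusted p = 0.145). Between the genotypes no complement gene was called. C1ra, the partner of C1s, was at -0.85 ± 0.30 in base and Cfi at 0.63 ± 0.25 in apex. Hc, C6, Masp2 and C5ar1 were under the filter, and C3, C4b, Cfd and C7 were not analysed here.

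Of the ligands and partners, Lgals3bp was the 1 call among 14 tested, 12 of them higher in base with a median of 0.28. It encodes a secreted glycoprotein that binds galectin-3. Lgals3bp had 537.4 and 602.5 in cKO base, against 344.5 and 277.4 in cKO apex, and 1067 and 1255 in control base, against 561.4 and 619.2 in control apex. It rose by 0.93 ± 0.14 in base (limma adjusted p = 0.0347). Between the genotypes it ran opposite to Lgals3: in each region both cKO samples lay below both controls, with differences of -1.02 ± 0.20 in base and -0.93 ± 0.20 in apex (unadjusted p = 0.00104 and 0.00181, adjusted p = 0.99985 and 0.9998). The myeloid transcription factor Cebpa (0.90 ± 0.16, adjusted p = 0.0512) and the phospholipase Plcg2 (0.79 ± 0.14, adjusted p = 0.0544), which acts after Tyrobp, did not pass in base against apex. The ligands of CSF1R had base minus apex differences of 0.29 ± 0.28 for Csf1 and 0.53 ± 0.23 for Il34, and Cx3cl1 had 0.27 ± 0.17. Between the genotypes they stood at 0.21 ± 0.40, -0.27 ± 0.33 and -0.23 ± 0.24 in base and at -0.40 ± 0.40, -0.51 ± 0.33 and 0.21 ± 0.24 in apex.

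The 3 calls depended on the arrays in the fit, while the differences stayed of like size with any array left out, at 0.85 to 1.00 for Lgals3bp, 0.92 to 1.16 for Tmem119 and -1.15 to -0.86 for C1s1. Leaving out any cKO array or any control apex array gave an adjusted p of 0.113 to 0.157 for Lgals3bp, 0.113 to 0.209 for Tmem119 and 0.0722 to 0.209 for C1s1, and 0 to 25 calls over all genes. Without control base replicate 1 or 2 all 3 calls stood.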

How the data were processed

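RNA was measured in 8 samples, 2 in each of 4 groups, taken from the sample titles. Per the labels' protocols, RNA amounts of 75 to 125 ng went through 2 cycles of amplification before labelling with biotin. Each deposited value is the linear intensity of a probe set, a MAS5 signal with the trimmed mean of every array (2% off each end) set to 500 by the authors. The submitters' processing notes name MAS5 and affy 1.26. Precision is limited by how few arrays there are.

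Of 45101 probe sets 64 were array controls, 34945 had 1 gene, 932 several and 9160 none listed; 34741 of those with 1 gene matched an Entrez identifier. A gene was read from its probe set of highest mean log2 value, and genes under the 40th percentile were not tested. The signals were log2 transformed with no pseudocount. With limma 3.58.1 (R 4.3.3), 4 group means were fitted over all 8 samples with an intensity trend (4 residual and 3.46 prior degrees of freedom). The comparison over both regions used means per presumed mouse (2 and 3.10). All p-values are two-sided, Benjamini-Hochberg adjusted over all genes. Alternatives changed the filter, pseudocount, normalization, probe set rule, variance model, replicate block and samples included. Sums and correlations used Python 3.11.15, numpy 2.4.6 and pandas 2.3.3.

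Deviations from the group mean of basal and apical samples that share a number correlated by r = 0.339 in controls and 0.0683 in cKO, so the pairing, read from the labels, had weak support in cKO.

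The 10 genes and 14 further lists (15 lists, 178 genes) were chosen with earlier results of these data known. Named from those lists were up to 3 tested genes of smallest p in the comparison described, any called gene, and in the complement and partner lists any gene; Adgre1, Mrc1 and Spi1 were named as detected markers, and Ms4a7, Ngp and other genes named for their correlation were chosen by its size, the context genes Tectb, Dicer1, Xist and Dct as label checks.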

Additional observations from a re-analysis of the deposited data

How the results depend on the processing

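Under 21 alternative settings none of the 10 genes passed the adjusted threshold in any of the 7 comparisons. Over both regions, leaving out an array dropped its whole presumed mouse, since the mean of a mouse needs both of its arrays. The difference of Lgals3 over both regions was then 0.71 to 1.23. Of 665 single values, 616 kept their sign and 49 did not, 41 of them with a sample left out. The difference of Lgals3 between the genotypes stayed positive, at 0.82 to 1.33 in base and 0.60 to 1.13 in apex. Leaving out a sample in turn gave cKO minus control in base of -0.11 to 0.35 for Cd68, -0.89 to 0.65 for Aif1, -0.72 to 0.41 for C1qa, -0.71 to 0.31 for C1qb, -0.69 to 0.14 for C1qc, -0.16 to 0.60 for Tyrobp and -0.24 to 0.49 for Cx3cr1. In apex it gave -0.37 to 0.54 for Cd68, -0.83 to 0.30 for Aif1, -0.15 to 0.37 for Csf1r, -0.79 to 0.40 for C1qa, -0.81 to 0.42 for C1qb, -0.79 to 0.39 for C1qc, -0.26 to 0.57 for Tyrobp, -0.47 to 0.47 for Cx3cr1 and -0.18 to 0.14 for Ptprc. For base minus apex it gave -0.49 to 0.27 for Aif1, -0.0018 to 0.34 for Csf1r, -0.0786 to 0.51 for C1qa, -0.0650 to 0.55 for C1qb and -0.0210 to 0.45 for Cx3cr1, and for Lgals3 -0.12 to 0.41 within controls and -0.0553 to 0.47 in the genotype difference of base minus that of apex.

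In apex, cKO minus control of Cx3cr1 was 0.0415 after quantile normalization and 0.0419 after centring on the 75th percentile, and that of Ptprc was 0.0401 and 0.0206. With all probe sets of a gene averaged, Ptprc stood at 0.10 in apex and -1.25 in base, where that mean includes the dim probe set, and Csf1r at -0.0267 in apex. Quantile normalization gave Aif1 0.15 for base minus apex. Apart from the dim probe set, the causes of these turns were not tested. Counts over all genes moved for base minus apex, from 0 without cKO apex replicate 1 to 1518 without control base replicate 1. Between the genotypes some genes were called in base without control base replicate 2, and over both regions without presumed control mouse 2. Without the intensity trend 1 was called in base and in apex. With the replicate number as a replicate block, Lgals3 had an adjusted p of 0.996 in base and 0.9998 in apex, and the blocks changed no call of the 10 genes. Tmem119 was called in 10, Lgals3bp in 12 and C1s1 in 7 of 19 alternatives. With 2 samples a group, the number of arrays limits what can be detected.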
